A study of Mus musculus with 22 samples.

Results

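Transcripts of the cytosolic ribosomal protein genes were compared between TgproNGF#3 mice and their wild-type (WT) controls, in hippocampi taken at an age of 1, 3 or 12 months. Members were the genes whose symbol starts with Rpl or Rps and a number, together with Rplp0, Rplp1, Rplp2 and Rpsa, and that are matched by a probe through its RefSeq transcript. S6 kinase genes and pseudogenes were left out. The rule found 84 genes with 172 probes, out of 21154 genes with a symbol and 55681 probes on the array. Of the 84 genes, 32 code for proteins of the small subunit and 52 for proteins of the large subunit.

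TgproNGF#3 mice, 1 of the lines founded with this construct, express a mouse proNGF whose furin cleavage site was mutated so that it resists cleavage. The cDNA is followed by an IRES and EGFP and is driven by the Thy1.2 promoter, which is active in neurons of the adult brain. Both genotypes were of the C57Bl/6xDBA/2 strain and untreated, and the right hippocampus of each mouse was taken. Each genotype had 4 males of 1 month, 4 males of 3 months and 3 females of 12 months, and each of the 22 mice was given a one-colour array. Each age was hybridized and scanned on its own slide, so age, slide and scan cannot be told apart, nor can sex at 12 months. At 1 month the TgproNGF#3 arrays also lay in other columns of the slide than the WT arrays, and at 12 months they shared an array row with 1 of 3 WT arrays. The comparison of genotypes asks what an excess of uncleavable proNGF does to hippocampal transcripts at each age.

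Ribosomal proteins fold with ribosomal RNA into the small subunit, which decodes the messenger RNA, and the large subunit, which forms the peptide bond. Their mRNAs are among the most abundant of a cell, and in mammals they begin with a C followed by a run of pyrimidines (the 5′ terminal oligopyrimidine tract), through which mTOR signalling and the binding protein Larp1 control their translation. Neurons also carry these mRNAs into axons and dendrites. An array measures mRNA level, not translation.

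The tract is shown here because it is the feature of these transcripts that the choice by symbol did not use. RefSeq promoters (GRCm38.p6) were matched for 64 of the 84 genes. A C followed by 4 bases that are each C or T stood exactly at the annotated start in 14 of the 64 genes (21.9%), against 3.01% of all genes with a promoter. It began within 5 bases of the start in 30 genes (46.9%), against 21.2% of all genes. The windows below run 15 bases to each side of the start and are written 5′ to 3′ on the gene's strand. A C with 4 or more pyrimidines is in capitals only where it began within 5 bases of the start. Runs that began further away, as in the window of Rpl13, were left in lower case. Rps6, whose protein is the classical substrate of the S6 kinases, and the next 5 genes were picked because they carry the tract. Rps10, Rps27, Rpl35, Rpl38 and Rps21 return below among the genes called higher in WT mice from 1 to 3 months, and so do Rpsa, Rpl24, Rpl37a and Rpl22, which do not carry it. The last 3 windows are those of genes that differed between genotypes at 3 months. Since the windows were picked, no contrast between these sets can be read from them.
Rps6 (chr4:86857353-86857382, minus strand): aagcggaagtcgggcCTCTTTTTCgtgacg
Rps10 (chr17:27635230-27635259, minus strand): gcgccgcgcacgcccCTTCCTTTCCagcct
Rps27 (chr3:90213634-90213663, minus strand): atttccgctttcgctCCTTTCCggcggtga
Rpl35 (chr2:39005117-39005146, minus strand): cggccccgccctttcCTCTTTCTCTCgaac
Rpl38 (chr11:114668565-114668594, plus strand): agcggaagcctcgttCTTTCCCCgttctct
Rps21 (chr2:180257364-180257393, plus strand): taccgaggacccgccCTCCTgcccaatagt
Rpsa (chr9:120127751-120127780, plus strand): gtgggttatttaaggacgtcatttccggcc
Rpl24 (chr16:55966260-55966289, plus strand): agaaagctgttgctaggaaacagactgggc
Rpl37a (chr1:72711245-72711274, plus strand): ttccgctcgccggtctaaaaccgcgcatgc
Rpl22 (chr4:152325711-152325740, plus strand): ttcgccctgggaaaagcaatagctggccga
Rps15 (chr10:80292416-80292445, plus strand): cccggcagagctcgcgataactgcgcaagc
Rpl13 (chr8:123102335-123102364, plus strand): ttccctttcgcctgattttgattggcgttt
Rpl36a (chrX:134585639-134585668, plus strand): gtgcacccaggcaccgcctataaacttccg

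In the last 7 windows no such tract began within 5 bases of the annotated start, which says only that these letters are not there. The motif CCGGAAG was found on either strand of the 300 bases around the start (250 before and 50 after) in 25 of the 64 genes (39.1%), against 9.93% of all genes. TATAAA within 40 bases before the start was found in 1 of them (1.56%), against 2.78% of all genes. The 30 tested genes with a tract within 5 bases had a median difference between genotypes at 3 months of -0.07, and the 32 without had one of -0.13. No test was made of these shares or medians.

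Levels are given below as the log2 signal of a probe minus the 75th percentile of the log2 signals of its array, and a difference is between the group means of such levels. Each gene is represented by its brightest probe. For 81 of 84 genes that probe was well above background on all 22 arrays. Rpl10l and Rpl39l, paralogs known from the testis, were well above background on too few arrays to be tested, while Rpl3l, the paralog of striated muscle, was measured at the bottom of the range and was missing on some arrays. This left 82 genes tested in each comparison. A probe was called at a Benjamini-Hochberg adjusted p below 0.05 in limma (two-sided), adjusted over all probes tested.

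The median level of the 81 members on an array averaged 4.75 ± 0.22 at 1 month in 4 TgproNGF#3 mice (mean and SD), and 4.65 ± 0.08 in the 4 WT mice of that age. The 3-month averages were 4.65 ± 0.07 (SD, n = 4) and 4.62 ± 0.06 (SD, n = 4), and the 12-month averages 4.61 ± 0.11 (SD, n = 3) and 4.61 ± 0.06 (SD, n = 3). Between 57.6% and 80.3% of the spots of an array were well above background. This share was 69.8% or more on each array of 1 month and 67.7% or less on each later one, which bears on the comparison of ages below. The 6 markers of hippocampal neurons that were looked at (Neurod6, Prox1, Camk2a, Snap25, Slc17a7 and Neurod2) were well above background on all arrays. In bulk tissue, fewer cells of a type and less RNA per cell cannot be told apart.

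At 3 months, 4 of the 82 ribosomal protein genes differed between genotypes. Rps15, a protein near the decoding centre of the small subunit, was 1.49-fold higher in TgproNGF#3 mice. Rps20, another protein of the small subunit, was at 0.659 of the WT level, and the large subunit proteins Rpl36a and Rpl13 were at 0.683 and 0.707. With 1 gene called higher, where 1.57% of all probes tested were, and 3 called lower, where 6.85% of all probes were, the members' shares were no larger than those of the whole array. Of 925 other probes at least as bright as the lower quartile of the members, 3 were called higher (0.324%) and 24 lower (2.59%). The members' shares of 1.22% and 3.66% were larger, but they are over all 82 genes, of which only 63 were as bright. Rpl36a, 1 of the 3 called lower, was dimmer than these 63. The calls and their split turned with the processing: 2 genes were called higher and 0 lower with dim spots kept and with the percentile taken over all spots, 1 and 0 with quantile normalization, and 2 and 4 in the log2 values that the authors deposited. With arrays aligned to their median, or with the array row or the replicate number as a block, 0 were called. The median difference over the 82 genes was -0.12, and that over all 33593 probes was also -0.12. The array medians of the members given above were, by contrast, slightly higher in TgproNGF#3 mice, so the sign depends on which of the medians is taken.

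The level of Rps15 was 5.17, 5.21, 5.30 and 4.94 in TgproNGF#3 replicates 1 to 4 and 4.69, 4.62, 4.28 and 4.74 in WT replicates 1 to 4. All TgproNGF#3 mice thus lay above all WT mice, WT replicate 3 being the lowest. The log2 difference was 0.57 (SE 0.152, limma adjusted p = 0.0494). The groups were also apart on a second probe of the gene, where the difference was 0.46 and was not called (limma adjusted p = 0.108).

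The level of Rps20 was 5.07, 4.91, 4.84 and 4.74 in the TgproNGF#3 mice and 5.50, 5.26, 5.66 and 5.54 in the WT mice. Each TgproNGF#3 mouse was below each WT mouse, and the difference was -0.60 (SE 0.142, limma adjusted p = 0.0338). The array has no second probe matched to Rps20.

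For Rpl13, the TgproNGF#3 mice had levels of 4.57, 4.61, 4.74 and 4.48 and the WT mice of 5.15, 5.07, 5.02 and 5.17. The groups did not overlap, with a narrow spread inside each, and differed by -0.50 (SE 0.124, limma adjusted p = 0.0391). Its other probes gave -0.64 (limma adjusted p = 0.0376) and -0.30 (limma adjusted p = 0.155), and on both of them the groups were apart.

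For Rpl36a, which is X-linked, the levels were 2.79, 2.78, 2.67 and 2.67 in TgproNGF#3 and 3.46, 3.04, 3.26 and 3.36 in WT mice. The highest TgproNGF#3 mouse lay below the lowest WT mouse, replicate 2, and the difference was -0.55 (SE 0.136, limma adjusted p = 0.039). One further probe gave -0.48 with the groups apart (limma adjusted p = 0.0571) and another -0.08 with the groups overlapping. Its autosomal duplicate Rpl36al had a difference of -0.38 with the groups apart (limma adjusted p = 0.0948). Probes of such near-identical copies may share signal.

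The direction of each of these 4 genes was kept in all 21 other ways of processing, but the call was not: leaving out 1 mouse at a time left 0 to 2 of the 82 genes called. It left 1 without TgproNGF#3 replicate 1 or 3, 2 without TgproNGF#3 replicate 4 or WT replicate 2, and 0 without TgproNGF#3 replicate 2 or WT replicate 1, 3 or 4.

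**Figure D1:**
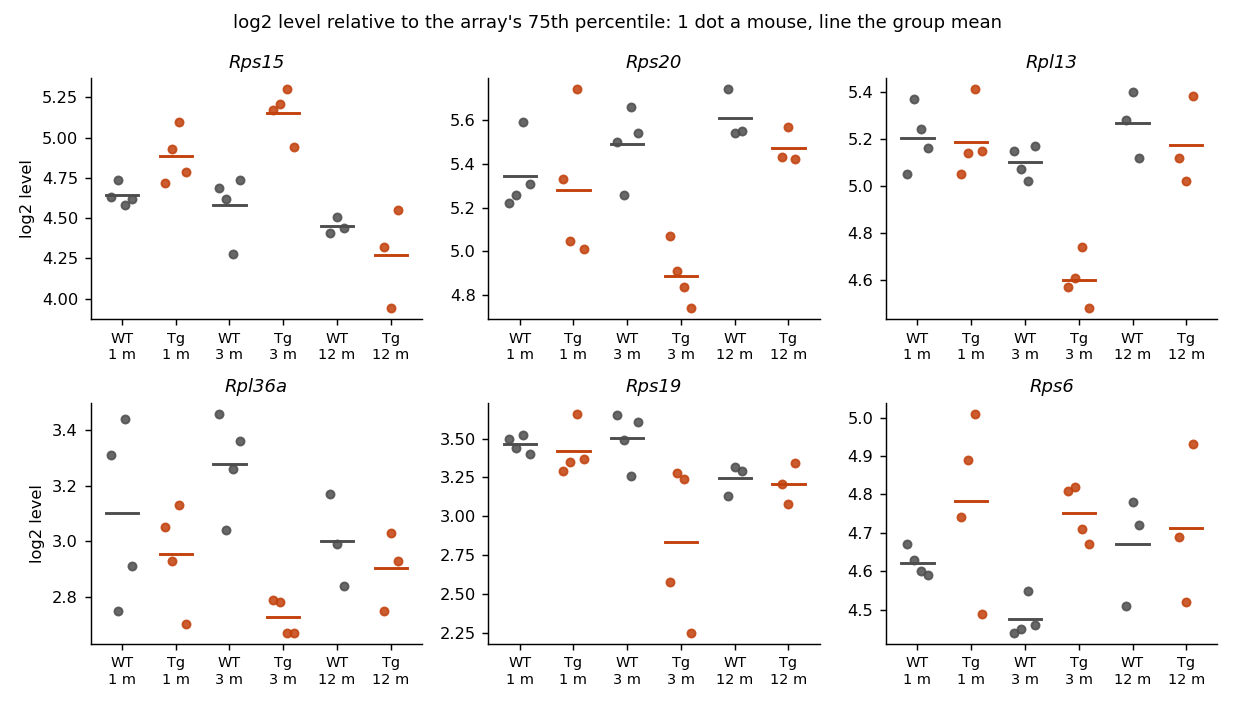
Levels of 6 ribosomal protein genes (log2 signal relative to the 75th percentile of the array, vertical axes with their own range) in each mouse by genotype (Tg, TgproNGF#3) and age in months (m). A dot is a mouse and a line the mean of its group (n = 4 at 1 and 3 months, n = 3 at 12 months). At 3 months the TgproNGF#3 dots lie above the WT dots for Rps15 and Rps6 and below them for Rps20, Rpl13 and Rpl36a, while those of Rps19 overlap.

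The largest negative difference at 3 months was that of Rps19, the protein most often mutated in Diamond-Blackfan anaemia, and it was not called. Its levels were 2.58, 3.28, 3.24 and 2.25 in TgproNGF#3 mice and 3.65, 3.49, 3.26 and 3.61 in WT mice. TgproNGF#3 replicates 1 and 4 were low and replicates 2 and 3 lay beside WT replicate 3, so that the groups overlapped, with a difference of -0.67 (SE 0.241, limma adjusted p = 0.114).

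Without adjustment, 4 members were higher at p below 0.05 at 3 months (Rpl31, Rpl32l, Rps15 and Rps6), against 7.48% of all probes, and 14 were lower, against 19.7%. The groups were apart in 6 members with TgproNGF#3 higher and in 13 with it lower, against 5.78% and 14.6% of all probes. No member passed, on its brightest probe, the criterion of the study's methods, an unadjusted p below 0.05 with a change of over 2-fold. Of all 168 member probes tested 1 passed it, and of all probes 6.76% did. Next to Rps15, the largest positive differences were in Rpl32l (0.35), Rpl31 (0.35) and Rpl41 (0.28), none of them called. The small subunit had a median difference of -0.07 over 32 genes and the large subunit one of -0.14 over 50.

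The P-stalk of the large subunit, which recruits elongation factors, is made of Rplp0, Rplp1 and Rplp2. Their differences at 3 months were -0.17, -0.12 and -0.15, with overlapping groups. Rps6 had a difference of 0.28 with the groups apart (limma adjusted p = 0.167). Rpl13a, which also takes part in translational silencing outside the ribosome, had one of 0.20, and Rps27a, made as a fusion with ubiquitin, one of -0.12. Rpsa, known also as a laminin receptor, had one of -0.35 on its brightest probe, while its 3 other probes ran from -0.96 to 0.62.

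Of paralogs with their parent genes, Rpl22l1 had a difference of -0.45 with the groups apart (limma adjusted p = 0.0531). Its parent Rpl22 also had one of -0.45, with overlapping groups (limma adjusted p = 0.113), and neither was called. Rps27l (-0.09) and Rps27 (-0.03), Rpl7l1 (0.03) and Rpl7 (-0.29), and Rpl3l (0.04) and Rpl3 (0.21, groups apart) were not called. Among genes that the rule leaves out, Rps4l, annotated as a transcribed pseudogene, was called higher (0.89, SE 0.206, limma adjusted p = 0.0318), a larger difference than that of any member's brightest probe. Rpl37rt, to which the annotation gives the probe that could stand for Rpl37, had a difference of -0.41 (limma adjusted p = 0.104). The ubiquitin-like fusion Fau had one of -0.07 and the ribosome-bound scaffold Rack1 one of -0.22, and these 3 were not called.

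**Figure D2:**
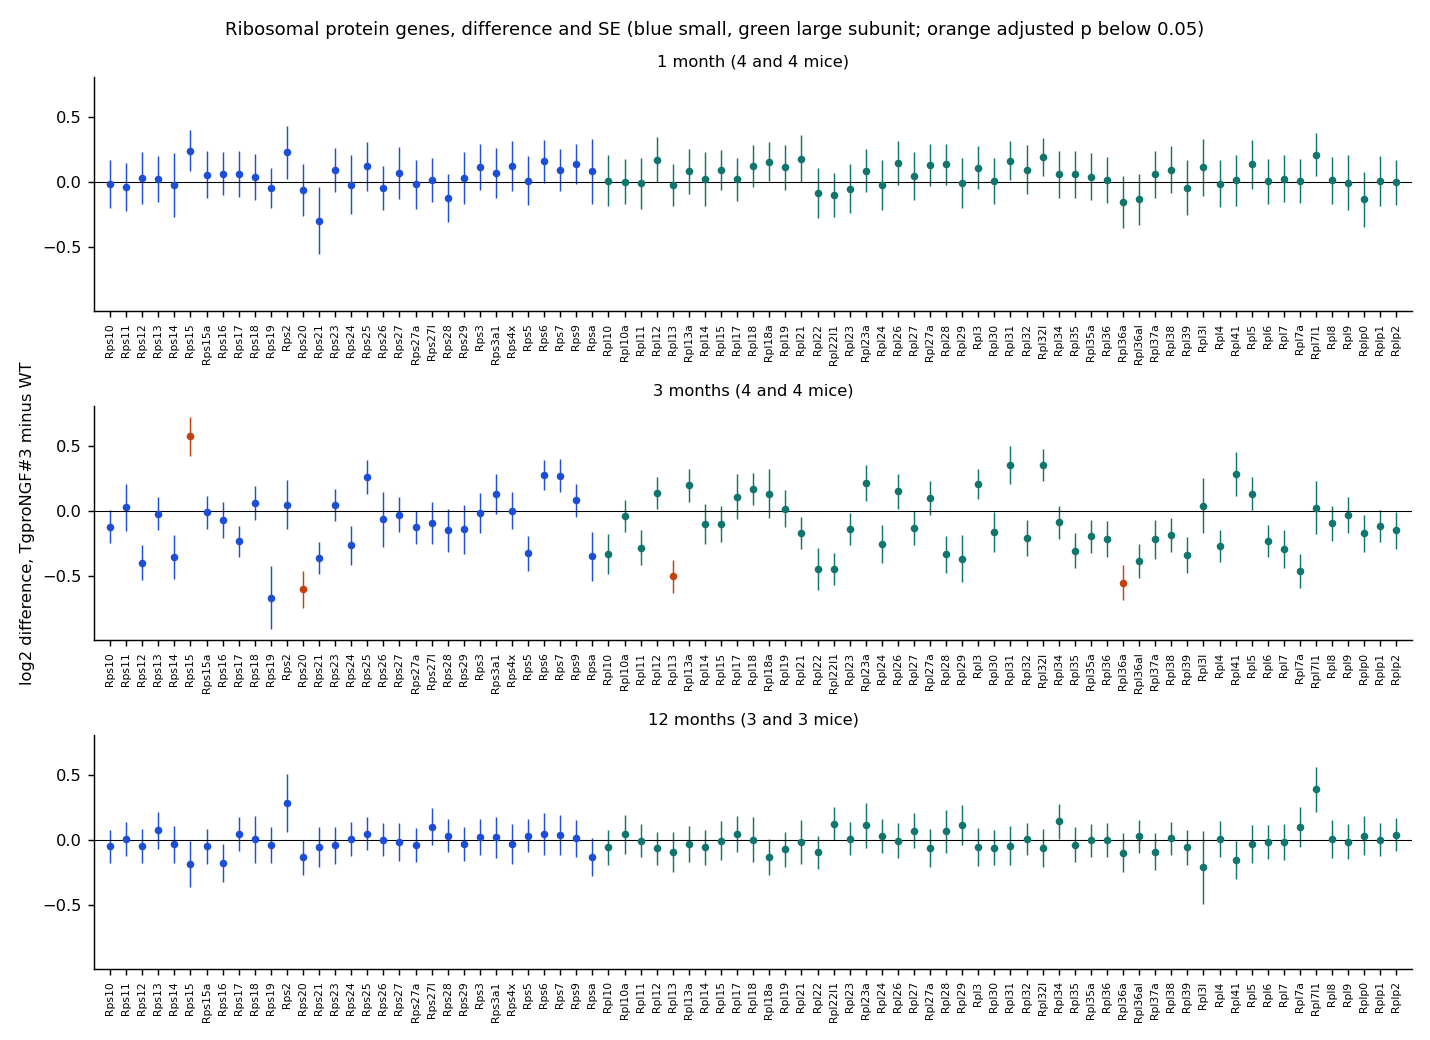
Log2 difference TgproNGF#3 minus WT with its SE (bars) for 81 of the 82 ribosomal protein genes, from top to bottom at 1, 3 and 12 months, with the small subunit in blue, the large subunit in green and called genes in orange. The SD over the 82 genes was 0.0919, 0.239 and 0.088 in this order, and the 4 genes called all belong to the middle panel.

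At 1 month no member was called, and none of the 40536 probes tested was (0%). No member had an unadjusted p below 0.05, where 2.15% of all probes were higher and 1.31% lower. The groups were apart in 1 member with TgproNGF#3 higher (Rpl32l) and in 0 with it lower, against 2% and 1.33% of all probes. The criterion with a change of over 2-fold was met by 0 members and by 0.57% of all probes. The median difference was 0.04 over the members and 0.07 over all probes.

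The largest positive differences at 1 month were in Rps15 (0.24), Rps2 (0.23), Rpl7l1 (0.21) and Rpl32l (0.19), and the largest negative ones in Rps21 (-0.30), Rpl36a (-0.15), Rplp0 (-0.13) and Rpl36al (-0.13). The level of Rps21 was 3.75, 3.05, 4.14 and 2.99 in TgproNGF#3 mice and 3.68, 3.80, 3.88 and 3.76 in WT mice. The TgproNGF#3 mice spread around the WT mice on both sides. The level of Rps15 was 4.72, 4.93, 5.10 and 4.79 against 4.63, 4.74, 4.58 and 4.62, so that only TgproNGF#3 replicate 1 lay within the WT range.

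At 12 months no member was called either, and again none of 34064 probes was (0%). No member had an unadjusted p below 0.05, against 3.11% of all probes higher and 5.94% lower. The groups were apart in 1 member, Rpl22l1, with TgproNGF#3 higher, and in 0 with it lower, against 7.42% and 8.12% of all probes. The over 2-fold criterion was met by 0 members and by 1.3% of all probes. The median difference was -0.01 over the members and 0.01 over all probes.

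The 4 genes called at 3 months had differences at 12 months of -0.18 (Rps15), -0.13 (Rps20), -0.09 (Rpl13) and -0.10 (Rpl36a). The largest positive differences at 12 months were in Rpl7l1 (0.39), Rps2 (0.29), Rpl34 (0.14) and Rpl22l1 (0.13), and the largest negative ones in Rpl3l (-0.21), Rps15 (-0.18), Rps16 (-0.18) and Rpl41 (-0.16). With array row as a block, Rps2 turned to -0.19 and Rpl3l to 0.09. Rpl7l1 had levels of -2.92, -3.13 and -2.89 in TgproNGF#3 mice and -3.55, -3.49 and -3.07 in WT mice. WT replicate 3, which shared the array row of the TgproNGF#3 mice, lay within their range (limma adjusted p = 0.549).

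Whether the genotype difference itself changed with age was tested in 1 fit of all 22 arrays. Between 1 and 3 months 0 members were called, against 2.68% of all probes. Without adjustment, 0 members had a difference that was higher at 3 months, against 1.15%, and 5 had one that was lower (Rpl13, Rpl28, Rpl7a, Rps19 and Rps20), against 13.3%. On a dimmer probe of Rpsa, chosen after its values were seen, the change was called (-1.22, limma adjusted p = 0.0433).

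Between 3 and 12 months 0 members were called as well, against 4.52% of all probes. At an unadjusted p below 0.05 the difference was higher at 12 months in 4 members (Rpl13, Rpl22l1, Rpl7a and Rps19), against 13.9%, and lower in 2 (Rpl32l and Rps15), against 4.65%. Rps15 came nearest to the threshold (-0.76, SE 0.22, limma adjusted p = 0.0527). The 3-month mice take part in both of these changes.

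Members often carried several probes, 53 of 84 having more than 1 and the largest number being 7. At 3 months the probes of a gene all had the same sign of difference in 28 of 51 genes with several probes tested. The range between the probes of a gene had a median of 0.18, and it was over 0.5 in 10 genes. At 3 months 4 calls were made on probes other than the brightest: a second probe of Rpl13 and dim probes of Rpl14 (-1.10), Rpl39 (-0.72) and Rps15a (0.88). The brightest probes of Rpl14 (-0.10) and Rpl39 (-0.34) were not called.

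**Figure D3:**
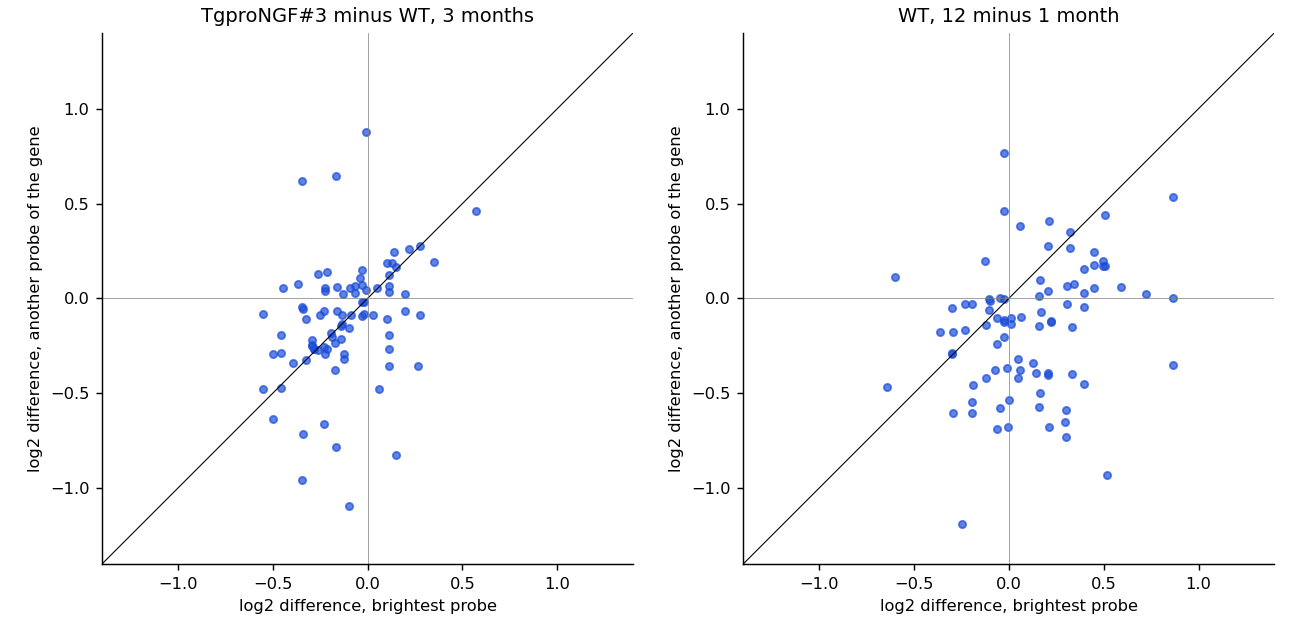
Log2 difference of each further probe of a ribosomal protein gene (vertical axis) against that of the gene's brightest probe (horizontal axis), for TgproNGF#3 against WT mice at 3 months and for WT mice of 12 against 1 month. A dot on the diagonal would be a probe that gives the same value as the brightest. The dots scatter on both sides of 0, and the range between the probes of a gene had a median of 0.182 at 3 months and of 0.442 for the ages.

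Other genes of the translation machinery were set beside the members at 3 months, when 1.57% of all probes were called higher and 6.85% lower. Of 77 mitochondrial ribosomal proteins, 3 were higher (Mrpl48 by 0.71, Mrpl38 by 0.61 and Mrps15 by 0.54) and 0 lower, with a median of -0.02. Of 8 elongation factors 0 were called, with a median of 0.21. None of 19 other transcripts known for a terminal oligopyrimidine tract was called either, with a median of 0.02. They include Eef1a1 (0.03), Eef2 (0.27), Tpt1 (-0.04), Pabpc1 (0.02) and Naca (0.02). No call was made among 32 ribosome biogenesis genes (median -0.01). Of 11 genes that control ribosomal protein synthesis, Rps6kb1, a kinase of Rps6, was lower (-0.89, limma adjusted p = 0.0351). Of 70 oxidative phosphorylation subunits, another set of abundant transcripts, Ndufa4 (-1.25) and Ndufa8 (-0.61) were lower, and the median was -0.09.

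Markers of other cell types were read on the same arrays of 3 months. The mean level of 4 endothelial markers ran from -1.46 to -0.86 in TgproNGF#3 mice and from -0.64 to -0.46 in WT mice, and 1 of the 4, Cdh5, was called lower (-2.07). The others were not called, Cldn5 at 0.44 (limma adjusted p = 0.152), Flt1 at -0.35 and Pecam1 at -0.33. The mean level of 5 oligodendrocyte markers ran from 2.34 to 2.51 against 2.16 to 2.26, with 0 called, and that of 4 interneuron markers from 2.37 to 2.92 against 1.89 to 2.42, with 0 called. Of the oligodendrocyte markers 4 were higher and 1 lower, and of the interneuron markers 3 were higher and 1 lower. The median difference was -0.04 over 5 astrocyte markers and 0.115 over 5 microglial markers, with 0 called in both. For 5 choroid plexus markers the mean level ran from -1.42 to 2.99 in TgproNGF#3 and from 1.876 to 2.703 in WT mice, and all 5 had negative differences (median -0.88) with 0 called. All 6 leptomeningeal markers had positive differences (median 0.30), with levels from -0.16 to 0.76 against -0.08 to 0.37 and 0 called. The 6 markers of hippocampal neurons had a median difference of -0.13, with levels from 1.13 to 1.95 against 1.49 to 1.90 and 0 called. No defining marker of these lists was absent from any array. Their part in the differences of Rps15, Rps20, Rpl13 and Rpl36a was not tested.

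In WT mice, the median difference of the ribosomal protein transcripts from 1 month to 3 or 12 months lay above that of all probes, most of which are dimmer, and close to that of probes as bright. No test was made of these distances. From 1 to 3 months the median difference was 0.02 over 82 members and -0.44 over all 35137 probes, so that the members were 0.46 above the median probe. From 1 to 12 months it was 0.06 over the members and -0.37 over all probes, a distance of 0.43. The distance to the median of all probes kept its sign in all 20 other ways of processing for 3 months (0.32 to 0.54) and in all 19 for 12 months (0.23 to 0.47). A shift of whole arrays moves both medians alike, so settings that only realign arrays could change this distance only through the probes tested. The median of all probes itself ran from -0.67 to 0.06 and from -0.70 to 0.18 with the processing, so absolute directions depend on it.

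The same was looked at in probes of like brightness. Of 925 other probes at least as bright as the lower quartile of the members, the median difference from 1 to 3 months was 0.00, and that of the 63 members as bright was 0.10. From 1 to 12 months these medians were 0.05 and 0.14, so that both distances, 0.095 and 0.094, were well below those to all probes. A shift of whole arrays cannot move them, and in the other ways of processing, the mean over a gene's probes left out, they ran from 0.049 to 0.132 for 3 months and from 0.03 to 0.112 for 12 months. Among the 82 members the difference was larger in genes of higher level (Spearman's rho across genes of 0.56 for 3 months and 0.65 for 12 months, against 0.13 and -0.13 over all probes). Genes are not independent replicates, and these values describe the same arrays. Of the 925 probes, 99 were called higher and 61 lower from 1 to 3 months, and 157 higher and 16 lower from 1 to 12 months. The share of spots above background was lower on the later slides than at 1 month. Markers of cell types moved over the same ages. From 1 to 3 months the median difference was -1.06 over 5 oligodendrocyte markers (4 called lower), -0.87 over 4 interneuron markers (3 called lower) and -0.96 over 6 leptomeningeal markers (3 called lower), beside -0.44 over all probes. It was -0.42 over 5 astrocyte markers (3 called lower), -0.27 over 5 microglial markers (1 called lower), -0.18 over 4 endothelial markers (1 called lower) and -0.14 over the 6 markers of hippocampal neurons (1 called lower). The 5 choroid plexus markers were all positive (median 0.54), with 0 called. From 1 to 12 months the median was -0.72 for oligodendrocytes (3 called lower), -0.68 for interneurons (2 called lower) and -0.46 for leptomeninges (1 called lower), beside -0.37 over all probes. It was -0.47 for astrocytes (2 called lower), -0.46 for endothelium (2 called lower), -0.32 for choroid plexus and -0.05 for microglia (0 called in both). For hippocampal neurons it was 0.13, with 0 called, and so above the median of all probes like that of the members. The part of the share of spots and of these markers in the result was not tested.

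**Figure D4:**
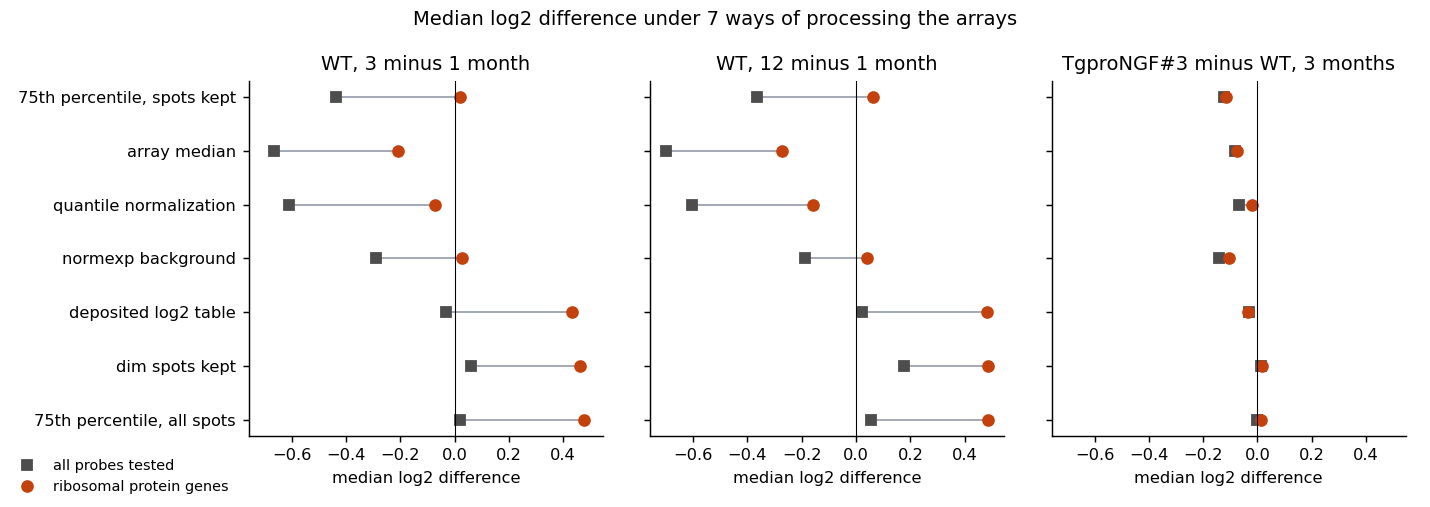
Median log2 difference of the ribosomal protein genes (dots) and of all probes tested (squares) under 7 ways of processing the arrays, for WT mice of 3 and of 12 against 1 month and for TgproNGF#3 against WT mice of 3 months. In WT mice both medians move together, the members changing sign between -0.207 and 0.477 for 3 months, and the distance between them stays positive. A shift of whole arrays moves both medians alike and cannot change that distance by itself. At 3 months the genotype medians also change sign, from -0.117 to 0.017, and dots lie on or beside their squares.

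With the 75th percentile of the spots kept as the reference, 12 of 82 members (14.6%) were called higher at 3 than at 1 month. Of all probes 1.64% were, and of the 925 bright ones 99, though only 63 of the members were as bright as these. Another 3 members were called lower, against 41.3% of all probes. Those called higher included Rps14 (0.67), Rpsa (0.66), Rps21 (0.51), Rps10 (0.51) and Rps27 (0.50) of the small subunit and Rpl24 (0.47), Rpl37a (0.42), Rpl7a (0.41), Rpl22 (0.39), Rpl38 (0.39) and Rpl35 (0.37) of the large subunit. Those called lower were Rpl3l (-1.01), Rpl7l1 (-0.62) and Rps7 (-0.48). These counts turned with the scaling: 0 were called higher and 7 lower with arrays aligned to their median, 3 and 6 with quantile normalization, and 49 and 0 in the log2 values that the authors deposited. With the mean over a gene's probes they were 8 and 7. Of all 169 member probes tested, 18 were called higher and 9 lower.

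From 1 to 12 months 10 members (12.2%) were called higher (Rpl10, Rpl14, Rpl9, Rps10, Rps14, Rps21, Rps24, Rps27, Rps3 and Rpsa), against 2.43% of all probes. The share was below the 17% of the 925 probes of like brightness. Another 4 were called lower (Rps18, Rpl7l1, Rps3a1 and the X-linked Rps4x), against 25.1%. The counts were 0 and 15 with arrays aligned to their median, 2 and 12 with quantile normalization, and 39 and 0 in the deposited log2 values. They were 4 and 1 with the replicate number as a block across the ages, and 3 and 4 with the mean over a gene's probes. Of all 168 member probes tested, 11 were called higher and 18 lower, so the split also depended on the choice of the brightest probe. Without WT replicate 1 of 12 months Rps21 alone remained called, and the count of 14 became 6 without WT replicate 2 of 12 months or replicate 4 of 1 month and 7 without replicate 3 of 12 months or replicate 1 of 1 month. For 3 against 1 month the count of 15 became 7 without WT replicate 1 or 3 of 3 months and 8 without replicate 4 of 3 months or replicate 1 or 4 of 1 month.

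Rps21 lies at the surface of the small subunit. Its levels in WT mice were 3.68, 3.80, 3.88 and 3.76 at 1 month. The WT mice of 3 months had 4.45, 4.19, 4.28 and 4.25, and those of 12 months 4.65, 4.52 and 4.39. The mice of 1 month lay below all the others. The difference was 0.51 at 3 months (SE 0.131, limma adjusted p = 0.00921) and 0.74 at 12 months (SE 0.142, limma adjusted p = 0.00787), and it stayed positive in all other ways of processing.

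Rps14, another protein of the small subunit, had levels of 5.19, 6.07, 5.71 and 5.79 at 1 month. They were 6.61, 5.98, 6.59 and 6.25 in the WT mice of 3 months, and 6.70, 6.54 and 6.43 in those of 12 months. The groups of 1 and 3 months overlapped through WT replicate 2 of each, and those of 1 and 12 months did not. The difference was 0.67 at 3 months (limma adjusted p = 0.0207) and 0.86 at 12 months (limma adjusted p = 0.0175). Its sign held in the other ways of processing.

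Rpsa had levels of 4.68, 5.18, 5.38 and 4.93 at 1 month and 6.12, 5.78 and 5.83 at 12 months, a difference of 0.87 (SE 0.22, limma adjusted p = 0.0175) with the groups apart. Its other probes gave 0.00, -0.35 and 0.54, none of them called. Rpl9, at 0.73, likewise had a second probe at 0.02. Rps3a1 had -0.60 on its brightest probe and 0.11 on the other. Over the 51 genes with several probes tested, those of a gene all had the same sign from 1 to 12 months in 25, and the median range between them was 0.44.

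Rps18, of the head of the small subunit, was lower at 12 months, with levels of 3.77, 3.32, 3.72 and 3.39 at 1 month against 2.62, 3.02 and 3.09. The groups were apart, and the difference was -0.64 (SE 0.173, limma adjusted p = 0.0214), with a second probe at -0.47 (limma adjusted p = 0.0555). Rpl7l1, a paralog of Rpl7 that acts in ribosome assembly, had levels of -2.70, -2.70, -2.91 and -2.69 at 1 month. They were -3.71, -3.26, -3.05 and -3.47 in WT mice of 3 months, and -3.55, -3.49 and -3.07 in those of 12 months. The mice of 1 month lay above all older mice, with differences of -0.62 (limma adjusted p = 0.0132) and -0.62 (limma adjusted p = 0.0298). Over all probes tested the medians were -0.44 and -0.37 and the lower quartiles -0.686 and -0.585, so such falls were not particular to Rpl7l1. The parent Rpl7, much brighter with a mean level of 4.77 in WT mice of 1 month, had differences of -0.04 and -0.06.

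**Figure D5:**
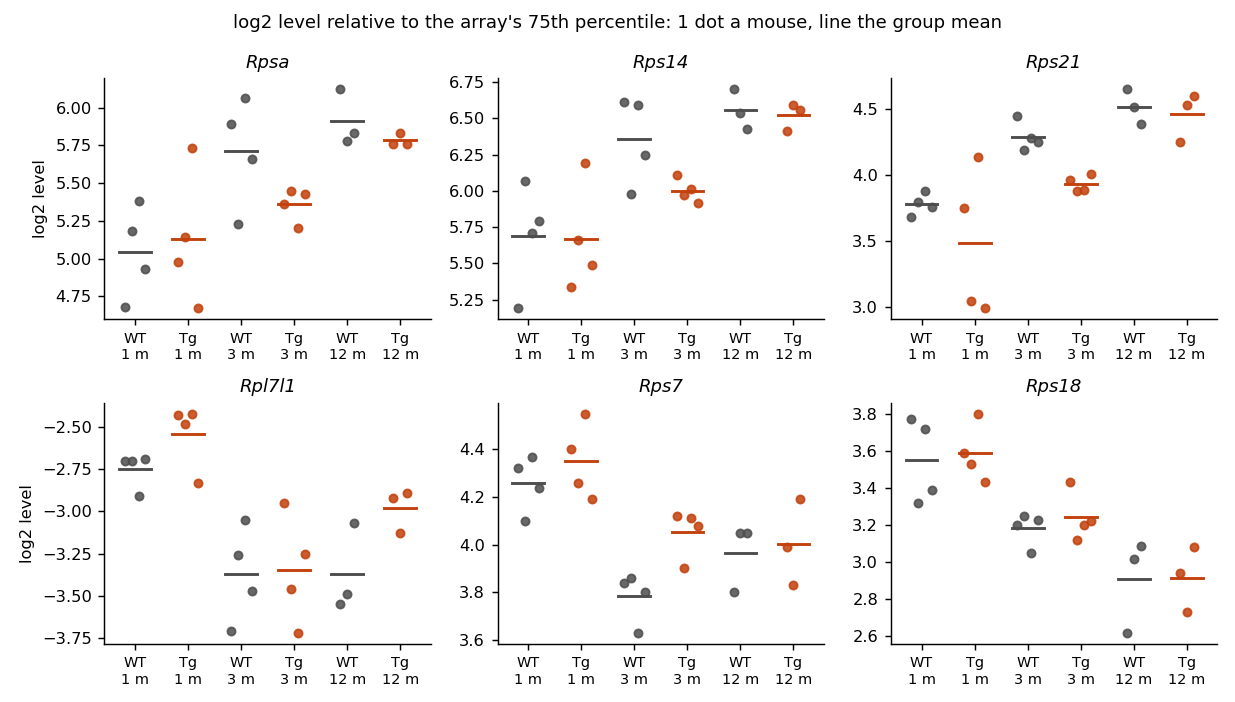
Levels of Rpsa, Rps14, Rps21, Rpl7l1, Rps7 and Rps18 in single mice (log2 signal relative to the 75th percentile of the array) by genotype (Tg, TgproNGF#3) and age in months (m), with the mean of each group as a line. Rps21 and Rps14 lie higher and Rpl7l1 lower in the WT mice of 12 months than in those of 1 month, directions that held in the other ways of processing, and each age is also its own slide.

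From 3 to 12 months 0 members were called, against 9.61% of all probes. At an unadjusted p below 0.05, 8 members were higher, against 18.5%, and 3 lower, against 7.48%. The largest positive differences were in Rpl3l (0.62), Rpl13a (0.43) and Rps25 (0.43), and the largest negative ones in Rps3a1 (-0.41), Rpl22 (-0.40) and Rps4x (-0.38). The 2 other probes of Rpl13a ran the other way, at -0.50 and -0.51, and the second of them was called (limma adjusted p = 0.0453). It was 1 of 4 probes called among the 168 member probes tested, none of them the brightest of its gene. The P-stalk genes Rplp0, Rplp1 and Rplp2 differed by 0.19, -0.08 and 0.11 from 3 to 12 months and by 0.01, 0.16 and 0.21 from 1 to 12 months, with none called.

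Mitochondrial ribosomal proteins, of which 77 were tested, had a median difference of -0.41 from 1 to 3 months with 0 called higher and 33 lower, and one of -0.46 from 1 to 12 months with 0 higher and 25 lower. Ribosome biogenesis genes had medians of -0.34 (13 of 32 lower, 0 higher) and -0.45 (12 of 32 lower, 0 higher). For the oxidative phosphorylation subunits they were -0.11 (1 of 70 higher, 9 lower) and -0.13 (1 higher, 2 lower). The 19 other oligopyrimidine transcripts had medians of -0.21 and -0.19 (0 higher and 5 lower in both). The 8 elongation factors had medians of -0.33 (1 lower) and -0.39 (3 lower), and the 11 genes that control ribosomal protein synthesis had medians of -0.47 (6 lower) and -0.41 (4 lower), with 0 higher. The medians of all probes were -0.44 and -0.37, so those of the oxidative phosphorylation subunits and the other oligopyrimidine transcripts also lay above them, as that of the ribosomal protein genes did, while those of the genes that control their synthesis lay below. None of these distances was tested against another. Of all probes, 41.3% were called lower from 1 to 3 months and 25.1% from 1 to 12 months. These values carry the same dependence on scaling and slide.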

How the data were processed

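Right hippocampus RNA of 22 mice was hybridized, 1 mouse per one-colour Agilent array. The authors deposited the intensity of each spot from Feature Extraction 10.7.3.1, background-subtracted and without scaling between arrays, and a table of log2 values aligned at the 75th percentile. The analysis started from the spot intensities, and 0 spots were saturated. Control spots, spots not well above background (gIsWellAboveBG) and outlier spots were left out, log2 values were taken minus the array's 75th percentile, and spots of a probe were averaged. RefSeq identifiers gave 28026 probes a symbol, by the newer of 2 design annotations in the files, which agree on 167 of 172 member probes. Groups were compared within an age, WT ages in 1 fit of the WT arrays and changes of the genotype difference in 1 fit of all 22, with limma 3.58.1 in R 4.3.3 (lmFit, eBayes, at least 2 values per group, Benjamini-Hochberg over all probes). The procedure was tested on simulated data. The number of arrays limits the precision, and the labels do not exclude mice of 1 litter.

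The members and gene lists were chosen with earlier results of these data known. The genes named are the 4 largest rises and falls per genotype comparison, the 3 per WT age comparison, the P-stalk, Rpsa, Rps6, Rpl13a, Rps27a and the paralogs with their parents; other called genes were named after their values were seen. Values of some genes are not reported here. No label pairs the arrays. At 1 month arrays of the same replicate number lie in the same row of the slide and deviated together (correlations of 0.511, 0.272, 0.191 and 0.208 once group means were subtracted). Same-numbered arrays of 3 months also share a row, but their correlations were negative (-0.356 to -0.0234). Alternatives were other filters, scalings (median, quantile, all spots, dim spots kept), normexp with an offset of 50, the deposited log2 values, the mean of a gene's probes, a shared fit, the replicate number or array row as a block, and leaving out each mouse.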

Additional observations from a re-analysis of the deposited data

Results flagged for a closer look

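In 4 of 53 groups of 4 mice, 1 mouse stood apart from the others by a gap large for the range of its group, and chance alone gives this in about 1 in 20 groups. For Rpl7l1 at 1 month the gap was 0.865 of the range in TgproNGF#3 mice, where replicate 4 was low (-2.83), and 0.97 in WT mice, where replicate 3 was low (-2.91). For Rpl32l at 1 month it was 0.889 in WT mice, where replicate 2 was high (4.30). For Rpl22 at 3 months it was 0.879 in WT mice, where replicate 2 was low (3.53).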

How the results depend on the processing

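The counts of 0 members called between genotypes at 1 and 12 months and for the change of the difference from 1 to 3 months held in every alternative run. At 3 months the count of 4 (1 higher, 3 lower) became 2 with dim spots kept and with the percentile over all spots (both 2 higher, 0 lower), 2 with the mean over a gene's probes (0 higher, 2 lower), 1 with quantile normalization (higher), 8 in a fit of all 22 arrays (2 higher, 6 lower), and 0 with arrays aligned to their median, with the array row as a block and with the replicate block. It lay between 0 and 2 when 1 mouse was left out. Same-numbered arrays did not deviate together at 3 months (-0.356 to -0.0234) or at 12 months (-0.316 to 0.0503), so there the numbers are not a pairing; the block changed no call at 1 or 12 months. For WT ages, blocks across the slides were added after seeing the data, though different mice share only a number or a row position: with the replicate block the count of 15 for 3 against 1 month became 8 and that of 14 for 12 against 1 month became 5, with the array row they became 11 and 9, and for 12 against 3 months both left 0. The 3-month median of -0.117 became 0.017 with dim spots kept, 0.012 with the percentile over all spots, -0.021 with quantile normalization and -0.037 in the authors' values. Of all probes called at 3 months, 18.7% were higher, and this became 28.4% with dim spots kept, 41.5% with the percentile over all spots, 40.5% in the authors' values and 8.81% with the replicate block. The 12-month genotype median became 0.143 with arrays aligned to their median. For WT mice of 3 against 1 month, the count of 15 became 50, 53, 49, 7 and 9 with dim spots kept, the percentile over all spots, the authors' values, median alignment and quantile normalization, and the median of 0.02 became 0.461, 0.477, 0.432, -0.207 and -0.074. For 12 against 1 month, the count of 14 became 40, 38 and 39 under the first 3 of these and 7 with the mean over a gene's probes. Among all probes, the share of calls that were higher moved from 3.81% to between 1.54% and 72.9% for 3 against 1 month and from 8.84% to between 1.55% and 90.6% for 12 against 1 month. Without 1 mouse the counts lay between 7 and 16 and between 1 and 15. For 12 against 3 months, 1 member was called with the percentile over all spots and 3 in the authors' values, and the median became -0.124 with arrays aligned to their median and -0.077 with quantile normalization. For the change of the genotype difference from 3 to 12 months, 1 member was called with dim spots kept, with probes well above background on every array, with quantile normalization and with the mean over probes, 2 with the percentile over all spots, 3 in the authors' values, and 0 to 1 without 1 mouse. At 12 months Rpl3l turned to 0.119 with quantile normalization and to 0.093 with the array row as a block, and Rps2 to -0.187 with that block; from 3 to 12 months Rpl13a turned to -0.193 with the mean over its probes. The cause was not tested. These alternatives were run for 42 differences of single genes, the largest of each comparison, and the directions of the others among them held; those of the other genes named were not run.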
